A study of Mus musculus with 6 samples.

Results

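Havcr1-positive injured tubule cells were examined in obstructed mouse kidneys. Havcr1 encodes KIM-1, a surface receptor that injured proximal tubule cells put on their membrane and with which they take up dead neighbours. Members were chosen by measured UMI counts, namely when a barcode held at least 200 genes, at most 50% mitochondrially encoded UMIs (unique molecular identifiers, 1 per captured transcript), at least 2 Havcr1 UMIs, fewer than 2 Slc12a1 and 3 Slc12a3 UMIs, and at most 5 UMIs of C1qa, C1qb and C1qc together. Slc12a1 marks the thick ascending limb, Slc12a3 the distal convoluted tubule and C1q the macrophage. Of 25978 deposited barcodes, 23578 passed the gene and mitochondrial limits and 1227 of these (5.2%) were members, 564 in SH045 and 663 in Vehicle kidneys.

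Each library came from 1 C57BL/6 mouse, 7 days after surgical obstruction of a ureter, a procedure that scars the kidney. The 3 SH045 mice had received a compound that the series title ties to inhibition of the cation channel TRPC6, and the 3 Vehicle mice its vehicle. All 6 mice were obstructed, dose and route are not stated in the labels, and the contralateral and spatial samples were not analysed here. The question of the comparison is what the compound does in the obstructed kidney.

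When tubule cells are injured they lose transporters and metabolism, flatten, and switch on repair and inflammatory genes. Some recover, while others keep an inflammatory state marked by the adhesion receptor Vcam1, described in mice as failed repair. Sox9 is a transcription factor of regenerating tubule, Krt20 an intermediate filament of stressed tubule, and Cdh6 a cadherin of the developing and regenerating proximal tubule. Class II molecules present peptides to helper T cells and can be made by injured epithelium under interferon.

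Library totals ranged from 21186872 to 32256602 UMIs, and the summed members of a library from 1403781 to 3743264. The median member held 6504, 7530 and 6297 UMIs in SH045 mice 1 to 3, against 5999, 10248 and 8939.5 in Vehicle mice 1 to 3. Barcodes over the mitochondrial limit, left out here, were 10.3, 10.4 and 16.5% of SH045 and 4.17, 5.29 and 3.56% of Vehicle barcodes. Of the members' barcode sequences, 8 occurred in more than 1 library. A C1q UMI was present in 585 members, in 30.3, 35.4 and 37.1% of SH045 and in 51.3, 61.0 and 64.7% of Vehicle members. The summed level of 8 macrophage markers, all detected, was 156 ± 30.9 CPM (UMIs of a gene or list per 1000000 UMIs of the summed cells) in SH045 and 294 ± 105 in Vehicle members (SD, n = 3 each), with ranges of 130–190 and 213–414. Results that this can touch are therefore also given for the 586 members without any C1q or Ptprc UMI (Ptprc encodes the leukocyte antigen CD45). Neutrophil markers summed to 96.2 ± 44.6 in SH045 and 16.1 ± 7.32 in Vehicle members, and fibroblast markers, of which Pdgfra was at 0, to 17.7 ± 10.9 and 2.99 ± 0.88. The 4 dendritic cell markers, all detected, summed to 1.41 ± 1.25 CPM in SH045 members (0 to 2.38) and 12.4 ± 5.71 in Vehicle members (8.90 to 18.97), without overlap. B and plasma cell markers reached 859 CPM in Vehicle mouse 3 and at most 23.5 in the other 5 libraries.

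Marker genes of injured tubule were detected in the members of every library. Levels below are means over 6 libraries in CPM, with SD, and the other tubule cells are 5112 barcodes with 0 Havcr1 and 0 Ptprc UMIs and at least 2 UMIs of Cdh16, Epcam, Pax8, Lrp2 and Slc34a1. Because the members were selected on Havcr1, these values describe the cells and carry no test. Krt20 was at 131 ± 47.5 in members and 2.97 ± 3.34 in other tubule cells. Sox9 was at 76.0 ± 19.8 in members and 27.2 ± 6.77 in other tubule cells. Cdh6 was at 64.9 ± 16.9 in members and 24.2 ± 9.61 in other tubule cells. All 3 markers were higher in the members of all 6 libraries, as was Havcr1 by construction (1526 ± 220). The 3 markers of parietal epithelium (Cldn1, Ncam1 and Scin), all detected, summed to between 261.5 and 401.7 CPM in members by library. In other tubule cells they summed to between 55.2 and 125. What these transcripts say about the origin of the members was not tested.

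Inflammatory and mesenchymal genes stood apart in the same way. Vcam1 averaged 1041 ± 258 CPM in members and 47.1 ± 14.1 in other tubule cells. The monocyte attractant Ccl2 averaged 379 ± 146 in members and 11.9 ± 5.93 in other tubule cells. The hyaluronan receptor Cd44 averaged 171 ± 61.8 in members and 15.5 ± 6.01 in other tubule cells, and the filament Vim 95.2 ± 33.4 and 21.95 ± 9.49. All 4 genes were higher in members in 6 of 6 libraries. Pax8, a transcription factor of kidney epithelium, was at 138 ± 31.2 in members and 66.1 ± 6.16 in other tubule cells.

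Proximal transporters were detected in members. Their high level in the proximal tubule barcodes below is fixed by how those barcodes were chosen. Slc34a1, the phosphate transporter of the proximal tubule, averaged 660 ± 375 in members, 681 ± 401 in other tubule cells and 2459 ± 494 in 1366 proximal tubule barcodes (Havcr1 at 0, at least 3 UMIs of 5 proximal transporters). The endocytic receptor Lrp2 averaged 307 ± 106 in members, 242 ± 165 in other tubule cells and 834 ± 146 in proximal tubule barcodes. Distal genes were low in cells that had been selected against Slc12a1 and Slc12a3. Umod, made by the thick ascending limb, was at 73.9 ± 61.5 in members and 1713 ± 548 in other tubule cells, and the collecting duct channel Aqp2 at 1.70 ± 1.53 and 448 ± 336.

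Some genes known from kidney injury were lower in members than in the other tubule cells, a set that includes distal cells. Lcn2, the secreted injury protein NGAL, averaged 398 ± 306 in members, 1719 ± 594 in other tubule cells and 57.7 ± 47.8 in proximal tubule barcodes, and was lower in members than in other tubule cells in all 6 libraries. Krt18 averaged 45.4 ± 21.8 in members, 452 ± 122 in other tubule cells and 58.1 ± 37.99 in proximal tubule barcodes, again lower than in other tubule cells in 6 of 6. Spp1, the matrix protein osteopontin, was at 11560 ± 3474 in members, 7914 ± 2104 in other tubule cells and 2325 ± 727 in proximal tubule barcodes, and higher in members than in other tubule cells in 4 of 6 libraries.

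**Figure D1:**
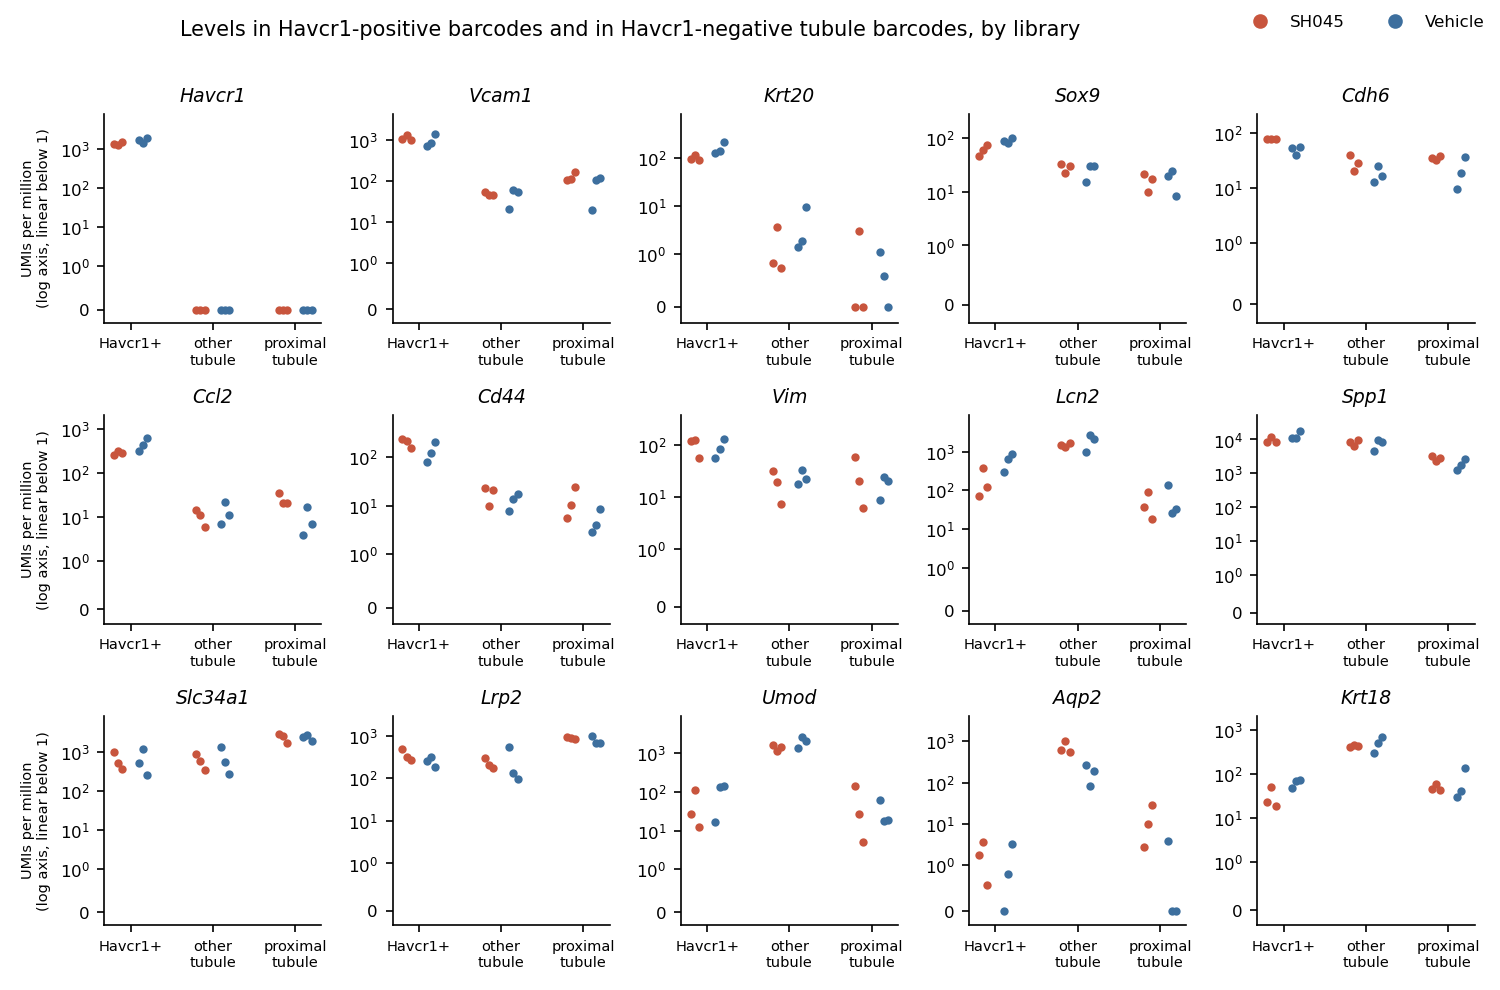
Level of 15 genes in Havcr1-positive cells, other tubule cells and proximal tubule barcodes, in CPM on a symmetric log axis that is linear below 1. Each point is 1 library, 3 SH045 left of 3 Vehicle; Krt20, Ccl2 and Cd44 points of the members lie above all points of the other 2 sets, while all Lcn2 and Umod points lie lower in members than in other tubule cells.

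Members just inside the Havcr1 limit were set against barcodes with exactly 1 Havcr1 UMI. Those barcodes, unlike the members, also needed 0 Ptprc UMIs and at least 2 UMIs of Cdh16, Epcam, Pax8, Lrp2 and Slc34a1. In the 185 members with exactly 2 Havcr1 UMIs, Vcam1 was detected in 39.5 ± 11.2% of cells after thinning to 2000 UMIs, against 20.6 ± 6.12% of barcodes with exactly 1. Sox9 was detected in 8.53 ± 3.59% and 4.37 ± 1.69%, and Krt20 in 5.01 ± 3.58% and 3.51 ± 3.64%. Slc34a1 was detected in 42.5 ± 12.5% and 56.5 ± 12.8% (SD over 6 libraries). It was among the genes used to choose the barcodes with exactly 1, so this difference is partly fixed by that choice. Havcr1 itself had quartiles of 4, 7 and 17 UMIs per member and a maximum of 238.

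States inside the members were set by thinning every member to 2000 UMIs, so that depth gave no cell a better chance of detection. A cell was put in the Krt20, Sox9, Vcam1 or Cdh6 state by at least 1 thinned UMI of that gene, and in the class II state by at least 2 thinned UMIs of H2-Aa, H2-Ab1 and H2-Eb1 together. Of 1227 members, 552 were in the Vcam1 state, 632 in the class II state, 146 in the Krt20 state, 133 in the Sox9 state and 133 in the Cdh6 state. A list of proliferation genes put 642 members in a cell cycle state. That list also holds transcripts of resting cells, so a stricter mitotic state, at least 2 thinned UMIs over 16 mitotic genes, was added after the data were seen and held 98 members. A cell outside a state may still express the gene below detection.

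Free RNA sets a floor under these shares, which was read in 646 T cells. Their median depth was 3423 UMIs, against 7545 in members. After thinning, T cells were positive in 0.155% for Krt20, 0.31% for Sox9 and 1.7% for Vcam1, and in 0 of 646 for Cdh6, which allows a share of up to 0.464%. For class II the T cell share was 23.1%, between 9.45 and 57.8% by library. The class II state therefore has a background far above that of the 4 gene states.

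Vcam1 was detected in most Krt20-state and most Sox9-state members, while these states made up a minority of the Vcam1-state members. Vcam1 was detected in 78.7 ± 10.2% of Krt20-state members and 40.4 ± 7.46% of the other members (SD over 6 libraries). It was detected in 69.6 ± 6.72% of Sox9-state members and 42.2 ± 6.78% of the other members. Sox9 was detected in 24.8 ± 7.68% of Krt20-state members and 9.04 ± 1.75% of the others. Of Vcam1-state members, 21.7 ± 7.13% were in the Krt20 state and 17.03 ± 3.14% in the Sox9 state, against 4.56 ± 2.01% and 6.15 ± 1.75% of the others. Each of these shares was higher inside the state in 6 of 6 libraries. Class II went the other way for Krt20: 40.4 ± 20.5% of Krt20-state members and 53.04 ± 10.2% of the others were class II positive, higher inside the state in 1 of 6 libraries. Vcam1-state members were more often class II positive than the others, 58.6 ± 12.4% and 46.2 ± 10.8%, in 6 of 6 libraries. These overlaps are descriptions without a test.

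**Figure D2:**
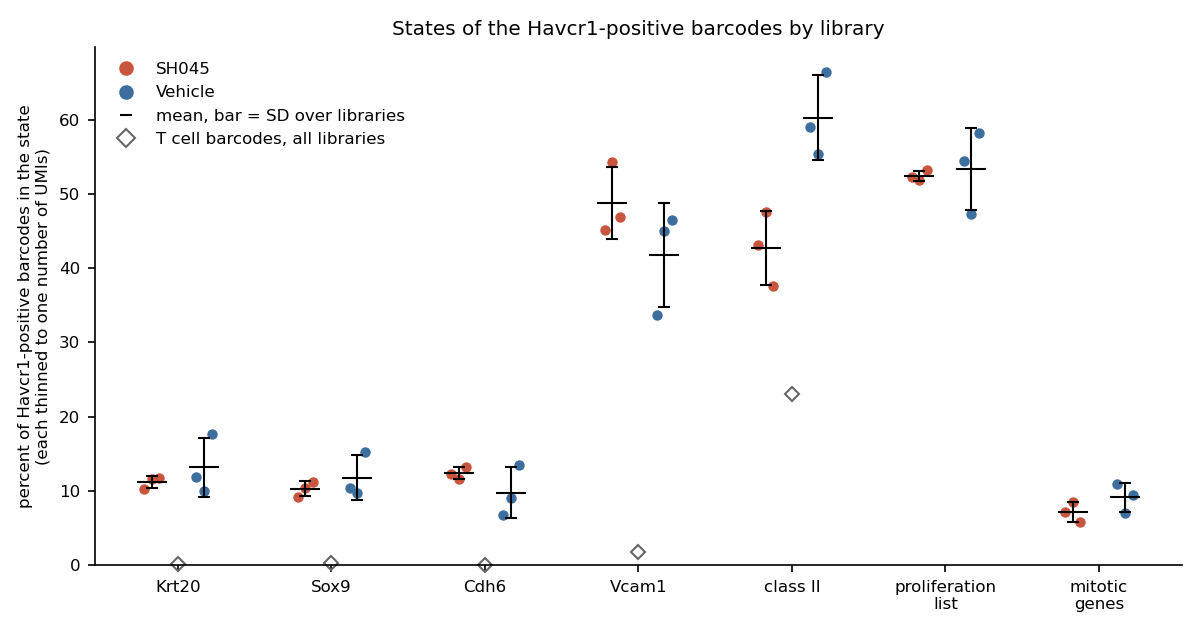
Share of Havcr1-positive cells in each state after thinning to 2000 UMIs, in percent, with 1 point per library and bars for the group mean and SD, SH045 left of Vehicle. Open diamonds give the share in T cells for the first 5 states; class II is the state whose SH045 points (37.6 to 47.6%) all lie below the Vehicle points (55.3 to 66.5%).

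Cells of the Krt20 state were poorer in proximal tubule transcripts than other members and richer in chemokine, cytoskeleton and proliferation transcripts. UMIs were summed in each library over members in the state and over the other members, and compared by the edgeR quasi-likelihood test with library as block and Benjamini-Hochberg adjustment at 0.05. Of 8303 genes tested, 972 (11.7%) passed, 466 higher (5.61%) and 506 lower (6.09%), and the median log2 change of all genes was -0.01. Levels in these comparisons are in CPM normalised between libraries by TMM factors, given as the lowest, median and highest of 6 libraries. Ccl2 had 814, 1300 and 1720 CPM in the Krt20 state and 164, 195 and 397 CPM in other members, a log2 change of 2.43 (SE 0.14, adjusted p = 5.69e-08). The interleukin-1 receptor antagonist Il1rn had 51.6, 94.9 and 315 CPM in the state and 2.03, 16 and 27.8 CPM in other members, a log2 change of 3.10 (SE 0.39, adjusted p = 0.000433). Slc34a1 had 25.8, 93.0 and 323 CPM in the state and 364, 642 and 1560 CPM in other members, a log2 change of -2.61 (SE 0.25, adjusted p = 0.000616). None of these 3 overlapped between the 2 sides. Ccl2 did not pass without C1q or Ptprc UMIs (adjusted p = 0.194).

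Other large rises in the Krt20 state were Ccl7, another monocyte attractant (log2 change 3.00), Cd83, a surface protein known from activated antigen-presenting cells (2.58), and the actin-binding protein Pdlim4 (2.31). Ccl7 did not pass without SH045 mouse 1, SH045 mouse 3, Vehicle mouse 2 or Vehicle mouse 3 (edgeR adjusted p up to 0.0881). It also missed the threshold without C1q or Ptprc UMIs and with no low-count filter (up to 0.438). Other large falls were Miox (-2.64), a renal enzyme of inositol breakdown, and the organic anion transporter Slc22a6 (-2.74). Of 34 tested genes of proximal transport and metabolism, 27 were lower and 0 higher (median -1.51). Of 28 cytoskeleton genes 19 were higher and 0 lower (median 0.55), led by Vim, Tagln2 and Tpm1. Of 31 proliferation genes 13 were higher and 0 lower (median 0.99), and of 16 chemokines and cytokines 9 were higher and 0 lower (median 1.16). Mitochondrially encoded transcripts were lower for 6 of 7 (median -0.64) and oxidative phosphorylation genes for 25 of 61 (median -0.26). Of 26 injury genes 10 were higher, among them Sox9 and Cd44.

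Without C1q or Ptprc UMIs, 5 libraries could be used, and 187 genes passed in the Krt20 state; with all members but without Vehicle mouse 2, 573 passed. Proximal genes were then lower for 15 of 27 (median -1.26), cytoskeleton genes higher for 8 of 26, proliferation genes for 1 of 11 and chemokines for 2 of 13. The state had a median depth of 9744 UMIs, averaged over libraries, and other members 7221.

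Cells of the Vcam1 state were richer in chemokine, NF-kB, interferon and MHC class I transcripts than other members, and poorer in proximal and mitochondrial ones. Of 8370 genes, 1212 (14.5%) passed, 583 higher (6.97%) and 629 lower (7.51%), around a median of -0.0021. Ccl7 had 98.9, 160 and 247 CPM in the Vcam1 state and 0, 3.63 and 14.1 CPM in other members, a log2 change of 4.98 (SE 0.27, edgeR adjusted p = 5.93e-09). Ccl2 had 442, 668 and 1140 CPM in the state and 4.42, 38.8 and 100 CPM in other members, a log2 change of 4.08 (SE 0.69, edgeR adjusted p = 0.0165). The plasminogen activator Plat had 244, 348 and 410 CPM in the state and 26.3, 39.6 and 53.8 CPM in other members, a log2 change of 3.11 (SE 0.12, edgeR adjusted p = 9.20e-16). The lowest library inside the state lay above the highest library outside it for each of the 3. Ccl2 did not pass without SH045 mouse 1 or Vehicle mouse 2 (edgeR adjusted p up to 0.0599), nor with states on unthinned counts (0.0737).

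Cd44 behaved in the same way, with 216, 293 and 405 CPM in the Vcam1 state and 12.8, 31.0 and 59.6 CPM in other members (log2 change 3.24). Krt20 had 133, 219 and 370 CPM in the state and 15.8, 25.1 and 38.9 CPM in other members (3.13). Cyp27b1, the enzyme that activates vitamin D in the proximal tubule, rose by 2.91 and the signalling regulator Rgs5, best known from pericytes, by 3.45. The neutrophil attractant Cxcl5 rose by 4.00, with libraries that overlapped. The largest falls were Klk1 (-4.26) and Umod (-3.81), both distal tubule genes, and Cyp2a4, Ces1f, Serpina1a, Slc7a12, Bcat1 and Inmt, between -3.22 and -2.69. Cxcl5 did not pass without any 1 of the SH045 mice (edgeR adjusted p up to 0.0602), and Klk1 did not without any 1 of these or Vehicle mouse 1 (up to 0.0874). Both also missed the threshold with no low-count filter and with states on unthinned counts (up to 0.114 for Cxcl5). Serpina1a lost its call without SH045 mouse 2, Vehicle mouse 1 or Vehicle mouse 3, and Bcat1 without SH045 mouse 1 as well as each of these. Serpina1a and Slc7a12 did not pass without C1q or Ptprc UMIs.

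Of 17 tested NF-kB targets outside the gate, 13 were higher and 0 lower in the Vcam1 state (median 1.1), including the pathway's own inhibitors Nfkbia and Tnfaip3. Chemokines and cytokines were higher for 11 of 16 (median 1.09), interferon response genes for 14 of 26 (0.71) and MHC class I presentation genes for 15 of 19 (0.62), with 0 lower in each. Failed repair genes, a list taken from published states of this kind, were higher for 10 of 15 and lower for 1, the cilia gene Dcdc2a. This list is not independent of the others. Of its higher genes, Traf1, Cxcl1, Relb and Birc3 were also counted as NF-kB targets, and Il34 and Ccl2 as chemokines and cytokines. Pdgfb and Pdgfd were also counted as profibrotic genes and Tpm1 as a cytoskeleton gene, which leaves Sema5a. Proximal genes were lower for 25 of 34 (median -1.15), oxidative phosphorylation genes for 45 of 61 (-0.29) and mitochondrially encoded transcripts for 7 of 7 (-0.81), with 0 higher. Of 19 p53 targets, 5 were lower and 0 higher, namely Gdf15, Ccng1, Phlda3, Bax and the cell cycle inhibitor Cdkn1a. Of 26 profibrotic genes 11 were higher, among them Pdgfb, Tgfb1 and Timp1, and Serpine2 was lower. Cytoskeleton genes were higher for 18 of 28 with 0 lower (median 0.40), and proliferation genes for 11 of 31 with 1 lower (0.78). Rises in these 2 lists were thus shared with the Krt20 state. Without C1q or Ptprc UMIs, cytoskeleton genes were higher for 12 of 27, and proliferation genes for 2 of 12 with 1 lower.

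Promoters are shown for a pair of neighbouring chemokine genes that were chosen after their values were seen, because both hold NF-kB letters (GGG, any 2 bases, TTTCC, searched on both strands). Cxcl1 had 163 to 373 CPM in the Vcam1 state and 33.0 to 147 CPM in other members, a log2 change of 1.74 (SE 0.16, edgeR adjusted p = 4.11e-06). Cxcl2 had 37.7 to 166 CPM in the state and 9.42 to 29.9 CPM in other members, a log2 change of 2.42 (SE 0.17, edgeR adjusted p = 3.53e-10). Both windows run from 250 bases before to 50 bases after the transcription start and come from RefSeq on GRCm38.p6, the Cxcl1 window at chr5:90890995-90891294 and the Cxcl2 window at chr5:90903649-90903948, both on the plus strand. Capitals mark each match on either strand.
Cxcl1: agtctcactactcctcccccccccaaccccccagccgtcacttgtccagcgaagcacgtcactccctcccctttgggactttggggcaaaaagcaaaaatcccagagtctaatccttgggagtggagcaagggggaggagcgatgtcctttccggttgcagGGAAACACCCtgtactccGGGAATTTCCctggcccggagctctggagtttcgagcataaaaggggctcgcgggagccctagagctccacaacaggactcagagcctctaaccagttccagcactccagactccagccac
Cxcl2: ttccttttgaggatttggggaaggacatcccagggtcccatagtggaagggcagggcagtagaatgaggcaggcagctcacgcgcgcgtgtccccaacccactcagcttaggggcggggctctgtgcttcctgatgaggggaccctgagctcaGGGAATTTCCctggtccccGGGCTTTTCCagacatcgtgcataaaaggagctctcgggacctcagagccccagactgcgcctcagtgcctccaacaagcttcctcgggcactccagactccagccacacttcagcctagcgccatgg
Each window held 2 matches, that of Nfkbia held 1, and of the 2 windows of Tnfaip3 1 held 1 and the other 0. The windows of Traf1, Icam1 and Birc3, NF-kB targets that were also higher in the Vcam1 state, held 0. Over the annotation, 535 of all 32851 promoter windows of this length (1.63%) held any. A match describes letters and not binding.

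Without C1q or Ptprc UMIs, 476 genes passed in the Vcam1 state. NF-kB targets were then higher for 9 of 15 (median 1.14), chemokines for 6 of 14, MHC class I genes for 10 of 16 and interferon genes for 4 of 16 with 1 lower, and proximal genes were lower for 17 of 30. Cells of the state had a median depth of 8938 UMIs and 4.75 ± 1.14% mitochondrial UMIs, and other members 6388 UMIs and 6.21 ± 1.32%. Thick ascending limb markers outside the selection summed to 13.8 ± 5.47 CPM in the state and 174 ± 163 in other members, and their part in the difference was not tested.

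**Figure D3:**
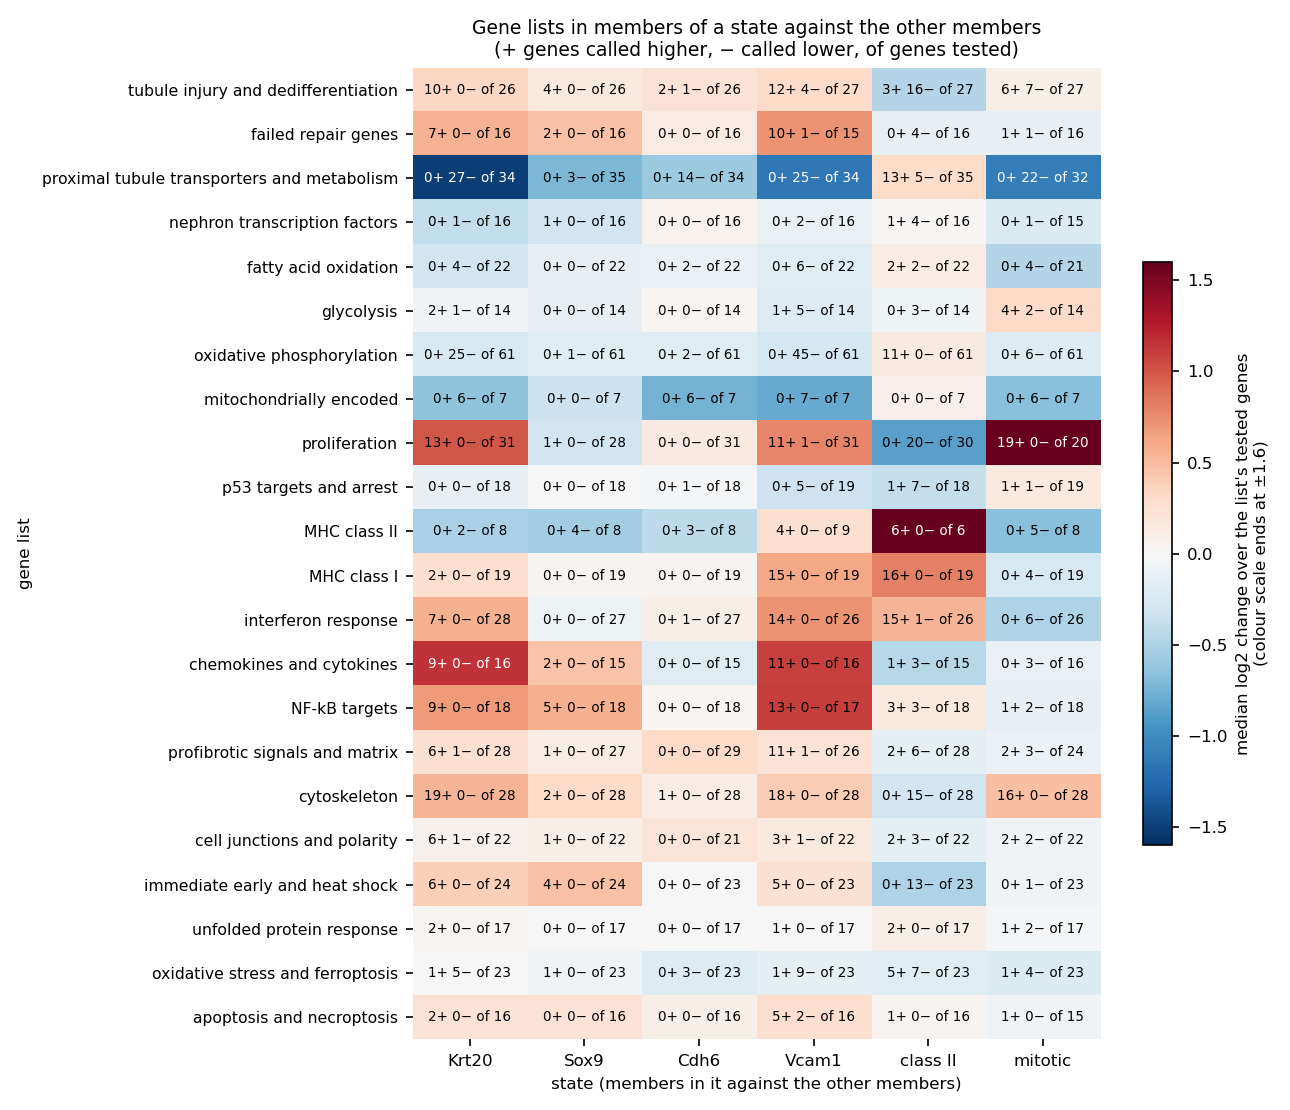
Median log2 change of gene lists, in rows, between Havcr1-positive cells in a state and the other Havcr1-positive cells, in columns. Colour gives the median (red higher inside the state, blue lower) and the text in a cell the number of genes called higher and lower of those tested; proximal transport genes are lower in the Krt20, Vcam1 and mitotic columns, and MHC class I genes higher in the Vcam1 and class II columns.

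The Sox9 state differed less. Of 8141 genes, 102 (1.25%) passed, 59 higher (0.725%) and 43 lower (0.528%), around a median of -0.013. The neutrophil attractant Cxcl1 had 216, 471 and 649 CPM in the Sox9 state and 103, 173 and 223 CPM in other members, a log2 change of 1.28 (SE 0.14, edgeR adjusted p = 4.15e-08), and the sides overlapped slightly. Vcam1 had 1220, 1940 and 2470 CPM in the state and 605, 941 and 1220 CPM in other members, a log2 change of 0.96 (SE 0.14, edgeR adjusted p = 0.00163). Tnfaip3 (1.31) and the membrane-cytoskeleton linker Marcks (1.26) were higher and did not overlap. The fatty acid carrier Fabp3 (-2.17) and the phosphodiesterase Pde1a (-2.04) were lower without overlap, and the glucose transporter Slc5a2 was lower (-1.33). NF-kB targets were higher for 5 of 18 (median 0.57) and class II genes lower for 4 of 8 (H2-Aa, H2-Ab1, H2-Eb1 and Cd74; median -0.56). Proximal genes were lower for 3 of 35, with a median of -0.72. The state held 17 to 29 cells in a library, and without SH045 mouse 2 the count was 65. Tnfaip3 did not pass without any 1 of the SH045 mice or Vehicle mouse 2. In members free of C1q and Ptprc UMIs, 36 genes passed, class II genes were lower for 1 of 7, NF-kB targets higher for 4 of 18 and proximal genes lower for 6 of 28, and Tnfaip3, Fabp3 and Pde1a did not pass.

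The Cdh6 state was marked mainly by lower proximal transporters. Of 8349 genes, 106 (1.27%) passed, 21 higher (0.252%) and 85 lower (1.02%), around a median of -0.000036. Slc22a6 had 0, 4.41 and 20.3 CPM in the Cdh6 state and 45.2, 89.0 and 120 CPM in other members, a log2 change of -3.27 (SE 0.34, edgeR adjusted p = 5.65e-09). The urate transporter Slc22a12 had 0, 16.5 and 41.6 CPM in the state and 56.1, 132 and 225 CPM in other members, a log2 change of -3.10 (SE 0.27, edgeR adjusted p = 6.44e-12). The matrix protein Npnt had 292, 453 and 677 CPM in the state and 181, 239 and 366 CPM in other members, a log2 change of 0.87 (SE 0.13, edgeR adjusted p = 2.94e-05). The falls did not overlap between sides and the rise did. The integrin subunit Itga3 (1.04) and the actin crosslinker Flna (0.95), both of cell-matrix attachment, were higher as well. Of 34 proximal genes 14 were lower and 0 higher (median -0.60), while 0 of the tested NF-kB targets passed. Itga3 did not pass without SH045 mouse 3 or Vehicle mouse 2. In members free of C1q and Ptprc UMIs, 25 genes passed, proximal genes were lower for 5 of 30 (median -0.65), and Slc22a6, Itga3 and Flna did not pass.

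Mitotic transcripts were found in members of each library. No background share was read for the gates of this paragraph, since T cells of these libraries were themselves rich in such transcripts, with Mki67 at 510 ± 132 CPM, against 48.6 ± 24.9 in members and 23.99 ± 9.66 in other tubule cells. The broad cell cycle state called 427 of 8162 genes (5.23%), 177 higher (2.17%) and 250 lower (3.06%), but 235 in all without SH045 mouse 1, 273 without Vehicle mouse 1 and 193 without Vehicle mouse 2. The mitotic state called 1136 of 7975 genes (14.2%), 624 higher (7.82%) and 512 lower (6.42%), around a median of 0.0058, and without Vehicle mouse 2 it called 702. Of 20 proliferation genes outside the mitotic gate, 19 were higher (median 2.78). The choice of cells on genes of the same process fixes this outcome, so it is no independent result. The spindle gene Hmmr had 94.0, 137 and 200 CPM in mitotic members and 0, 1.03 and 2.70 CPM in other members. Fibrinogen chains were lower: Fgg had 31.3, 57.1 and 151 CPM in mitotic members and 155, 484 and 1730 CPM in other members, a log2 change of -3.44 (SE 0.24, edgeR adjusted p = 2.50e-10). Fgb (-3.31), Fga (-3.06) and the complement gene C4b (-3.76) were lower too. With states on unthinned counts, Fgb and Fga did not pass (edgeR adjusted p = 0.331 and 0.12). Proximal genes were lower for 22 of 32 (median -1.11), class II genes for 5 of 8 (-0.67) and interferon genes for 6 of 26 (-0.50). Cytoskeleton genes were higher for 16 of 28. The 98 cells, 12 to 21 in a library, included more neutrophil marker RNA, 306 ± 590 CPM (6.37 to 1489 by library) against 36.7 ± 38.4 in other members. T cell markers summed to 34.97 ± 39.2 CPM in mitotic and 19.3 ± 15.7 in other members, and macrophage markers outside the selection to 200.1 ± 209.5 and 133 ± 55.4. The part of these cells in the results was not tested.

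Cells of the class II state were richer in antigen presentation and interferon response transcripts than other members, and poorer in those of the injury list. Of 8239 genes, 790 (9.59%) passed, 391 higher (4.75%) and 399 lower (4.84%), around a median of -0.01. Cd74, the class II chaperone that the gate did not use, had 3770, 4560 and 6160 CPM in the class II state and 1060, 1460 and 2000 CPM in other members, a log2 change of 1.72 (SE 0.08, edgeR adjusted p = 3.08e-16). H2-DMb2, which helps to load peptide, had 98.9, 114 and 153 CPM in the state and 11.7, 22 and 32.8 CPM in other members, a log2 change of 2.31 (SE 0.16, edgeR adjusted p = 8.73e-14). Neither overlapped, and all 6 tested class II genes were higher, including Ciita, the transcriptional master regulator of class II. MHC class I genes were higher for 16 of 19 (median 0.80) and interferon genes for 15 of 26 with 1 lower (0.54), among them the GTPase genes Gbp2 (1.72), Tgtp2 (1.66) and Iigp1 (1.94). Gbp2 did not pass without C1q or Ptprc UMIs, nor Tgtp2 and Iigp1 with states on unthinned counts.

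Injury genes went the other way in the class II state, lower for 16 of 27 and higher for 3 (C3, Fgg and Fgb; median -0.47). Lcn2, a gene of that list, changed by -2.39. Outside the list, the log2 change was -3.16 for Umod and -2.94 for the interleukin-1 family gene Il1f6. Lcn2 did not pass without C1q or Ptprc UMIs or with states on unthinned counts (adjusted p up to 0.348), and Umod did not pass on unthinned counts (0.142). Il1f6 reversed on unthinned counts, where it was higher in the state. Thick ascending limb markers outside the selection summed to 19.3 ± 17.0 CPM in the class II state and 176 ± 161 in other members, and dendritic cell markers to 9.98 ± 11.2 and 2.13 ± 1.53. The part of either in these results was not tested. Immediate early and heat shock genes, which also respond to dissociation, were lower for 13 of 23 (median -0.50), cytoskeleton genes for 15 of 28 (-0.31) and proliferation genes for 20 of 30 (-0.86). Proximal genes were higher for 13 of 35 and lower for 5 (median 0.30), and the amino acid transporter Slc6a19 was among the largest rises (1.57). Without C1q or Ptprc UMIs, 251 genes passed, Cd74 and its partners were higher for 4 of 5 class II genes (median 1.42), class I genes for 10 of 16 and interferon genes for 4 of 15, and proliferation genes were lower for 0 of 12.

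The promoters of H2-Aa and H2-Eb1, 2 of the 3 gated class II genes, are shown because the Y box letters CTGATTGG, an element of class II promoters, can be read in them. Windows are again from RefSeq on GRCm38.p6, H2-Aa at chr17:34287774-34288073 on the minus strand and H2-Eb1 at chr17:34305617-34305916 on the plus strand, with each match on either strand in capitals.
H2-Aa: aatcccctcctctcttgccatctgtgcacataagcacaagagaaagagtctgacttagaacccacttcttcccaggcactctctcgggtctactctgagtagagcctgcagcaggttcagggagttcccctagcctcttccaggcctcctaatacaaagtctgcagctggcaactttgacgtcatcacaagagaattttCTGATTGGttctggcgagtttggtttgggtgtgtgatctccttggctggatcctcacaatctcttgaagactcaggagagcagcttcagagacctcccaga
H2-Eb1: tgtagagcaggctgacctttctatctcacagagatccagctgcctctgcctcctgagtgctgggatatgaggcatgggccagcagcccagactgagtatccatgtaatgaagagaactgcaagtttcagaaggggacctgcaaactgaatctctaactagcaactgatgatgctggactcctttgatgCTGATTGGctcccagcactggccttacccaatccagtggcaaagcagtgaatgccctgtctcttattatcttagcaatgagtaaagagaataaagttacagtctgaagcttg
Each held 1 match, the windows of H2-DMb2, H2-DMa and H2-DMb1 held 0, and 1346 of 32851 promoter windows (4.1%) held any. All 3 of these H2-DM genes were higher in the state. Only the exact letters were searched, so near matches were not counted.

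Class II RNA in these cells was set against that of macrophages. Per Lyz2 UMI, a macrophage gene, the 3 gated class II genes had 13.2 to 46.4 UMIs in members by library, 6.88 to 12.4 in other tubule cells, 4.70 to 18.9 in T cells and 3.38 to 4.42 in macrophage barcodes. The ratio was higher in members than in macrophages in all 6 libraries. Members held 1171 to 2233 class II CPM and T cells 383 to 4503, and members held fewer than T cells in 5 of 6 libraries. Lyz2 itself was at 64.7 ± 47.4 CPM in members and 68.8 ± 33.6 in other tubule cells. Class II-state members had a C1q UMI in 52.8 ± 12.03% and other members in 40.7 ± 15.2%, at median depths of 8683 and 6862 UMIs.

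**Figure D4:**
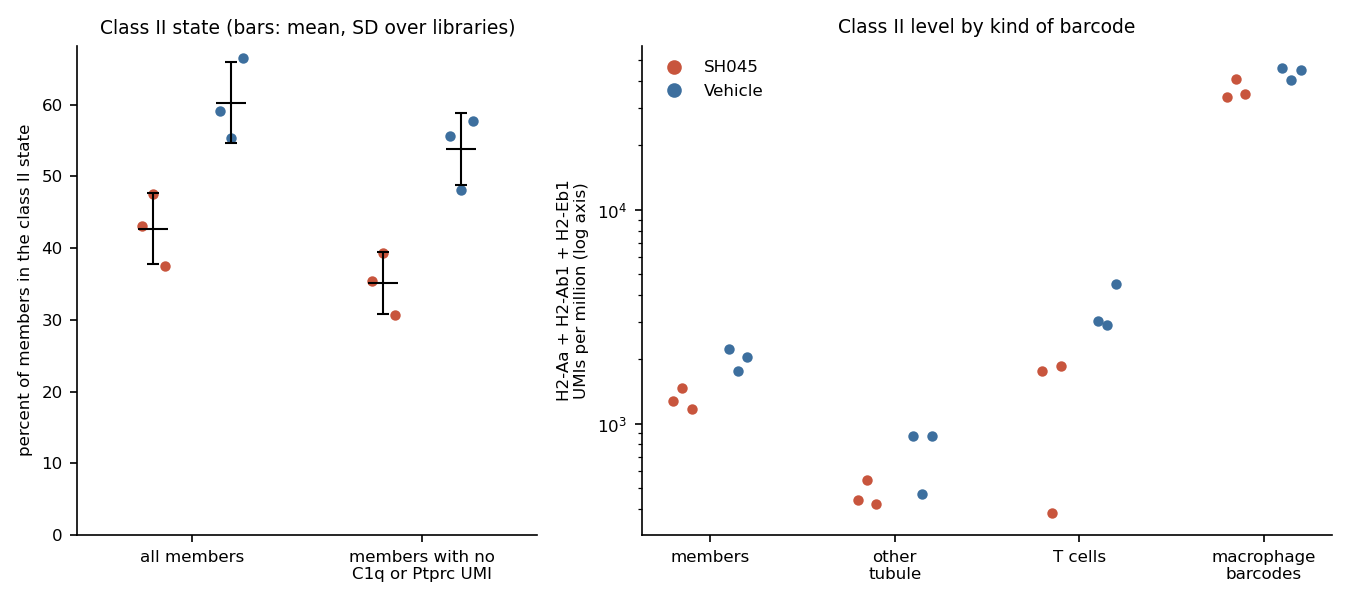
Class II RNA (H2-Aa, H2-Ab1 and H2-Eb1) with 1 point per library, SH045 left of Vehicle. Left, percent of Havcr1-positive cells (members) in the class II state, for all members and for those without a C1q or Ptprc UMI, with mean and SD; all SH045 points lie below all Vehicle points in both. Right, class II level in CPM on a log axis in members (1171 to 2233), other tubule cells, T cells (383 to 4503) and macrophage barcodes, which lie highest.

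Between treatments, the share of members did not separate the groups. Members made up 5.70, 4.12 and 5.66% of kept barcodes in the SH045 kidneys and 4.66, 7.03 and 4.11% in the Vehicle kidneys. The means were 5.16 ± 0.90% and 5.27 ± 1.56% (SD, n = 3 each, two-sided exact permutation p = 1.0, where the smallest possible is 0.1).

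The class II state held a smaller share of the members in each SH045 mouse than in any Vehicle mouse, in a design that cannot pass 0.05. It held 43.1, 47.6 and 37.6% of SH045 members and 59.1, 55.3 and 66.5% of Vehicle members, 42.7 ± 5.01% and 60.3 ± 5.67%, and the groups did not overlap (two-sided exact permutation p = 0.1, adjusted over 6 states p = 0.6). Unthinned shares were 74.7 ± 7.51% and 90.7 ± 4.21%. In members without a C1q or Ptprc UMI the shares were 35.4, 39.4 and 30.6% in SH045 and 55.7, 48.2 and 57.7% in Vehicle. The same direction appeared in T cells, whose share was read as background: they were positive in 13.3 ± 3.70% in SH045 and 40.8 ± 16.2% in Vehicle libraries. Other tubule cells, which may make class II themselves, were positive in 17.7 ± 1.73% in SH045 and 32.4 ± 12.4% in Vehicle libraries. Class II RNA outside the members thus moved with the groups in the same direction, and its part in the difference was not tested.

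The other states overlapped between groups over all members. Vcam1 was detected in 48.7 ± 4.86% of SH045 and 41.7 ± 7.0% of Vehicle members (exact permutation p = 0.2, adjusted 0.6; unthinned 65.7 ± 4.33% and 59.4 ± 7.90%). In members without C1q or Ptprc UMIs these shares were 42.5, 56.6 and 46.8% in SH045 and 36.4, 33.6 and 36.5% in Vehicle, which did not overlap. Krt20 was detected in 11.2 ± 0.80% of SH045 and 13.2 ± 3.98% of Vehicle members, Sox9 in 10.3 ± 1.0% and 11.8 ± 3.07%, and Cdh6 in 12.3 ± 0.79% and 9.76 ± 3.46%, with exact permutation p between 0.4 and 0.7 and an adjusted p of 0.7 for each. The broad cell cycle state held 52.4 ± 0.68% of SH045 and 53.3 ± 5.53% of Vehicle members (exact permutation p = 0.7, adjusted 0.7). Mitotic members were 7.19 ± 1.34% in SH045 and 9.10 ± 1.96% in Vehicle kidneys (exact permutation p = 0.3). In members without C1q or Ptprc UMIs they were 5.31, 7.07 and 4.84% in SH045 and 11.4, 7.27 and 9.62% in Vehicle, which did not overlap. The closest libraries lay at 7.07% (SH045 mouse 2) and 7.27% (Vehicle mouse 2). These shares, like those for Vcam1 above, rest on 113, 99 and 124 SH045 members and 88, 110 and 52 Vehicle members. No exact permutation p under 0.1 is possible with 3 against 3 mice.

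In summed expression, few genes passed the adjusted test between the groups, while many more did not overlap between them. In SH045 members 4 of 9 class II genes, 3 of 24 immediate early and heat shock genes and, of the injury list, Wfdc2 were lower, and Trabd2b was among the genes that were higher. Of 10293 genes tested by the edgeR quasi-likelihood test, 55 (0.534%) passed, 13 higher (0.126%) and 42 lower (0.408%) with SH045, around a median of -0.00092. Groups did not overlap for 2319 genes, 22.5% of those tested, and 1711 genes had an unadjusted edgeR p under 0.05. Without SH045 mouse 1 the count was 3, without Vehicle mouse 2 it was 18, and without Vehicle mouse 3 it was 136. The log2 change also ran with transcript length, with a median of -0.17 in the decile of shortest genes and 0.30 in the decile of longest genes, and 23 genes passed once that trend was removed.

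Trabd2b, a membrane protease that inactivates Wnt ligands, was the only named gene that passed and kept its call under all 16 alternatives run for it. The gene lies at chr4:114406724-114615098 on the plus strand (GRCm38, GENCODE vM21). It had 179, 164 and 167 CPM in SH045 members and 86.0, 82.6 and 70.6 CPM in Vehicle members, a log2 change of 1.09 (SE 0.14, edgeR adjusted p = 0.00113, at most 0.022 under the alternatives). Every SH045 library was above every Vehicle library. Among the other rises were Itgb8, a subunit of an integrin that activates TGF-beta (log2 change 0.88), the collagen-binding integrin subunit Itga1 (0.67), the focal adhesion protein Lpp (0.69), the cortical scaffold Phldb2 (0.77) and the guidance protein Sema5a (0.74). Also higher with SH045 were Rif1 (0.89), Baz1b (0.85), the repressor Zbtb20 (0.78) and the splicing factor Luc7l3 (0.70). The lipid phosphatase Lpin2 (1.01) and the carboxypeptidase Cpd (0.74) completed the 12 largest rises. Of 22 tested genes of cell junctions and polarity, 0 were higher and 1 lower. None of these genes other than Trabd2b passed with the length trend removed or without SH045 mouse 1.

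Among immediate early genes, Ier2, Junb and Jun were lower. Ier2, at chr8:84661331-84662852 on the minus strand, had 123, 135 and 113 CPM in SH045 members and 256, 225 and 229 CPM in Vehicle members, a log2 change of -0.93 (SE 0.14, edgeR adjusted p = 0.00419), and -1.24 (adjusted p = 0.00642) without C1q or Ptprc UMIs. Junb had 292, 304 and 255 CPM in SH045 members and 517, 451 and 513 CPM in Vehicle members, a log2 change of -0.80 (SE 0.14, edgeR adjusted p = 0.0103). Jun changed by -0.69. Junb missed the threshold without SH045 mouse 3 and Jun without SH045 mouse 2, SH045 mouse 3 or Vehicle mouse 2. With the length trend removed, Ier2 passed (-0.72, edgeR adjusted p = 0.0236), while Junb (-0.61, 0.0706) and Jun (-0.67, 0.0639) did not. Then 1 of 24 genes of the list was lower (median -0.27). Without C1q or Ptprc UMIs Junb passed (edgeR adjusted p = 0.0302) and Jun did not (0.0556). Jun also missed the threshold at Havcr1 of at least 3 and with likely doublets left out. These transcription factor genes respond within minutes to stress, dissociation included. Of 24 immediate early and heat shock genes, 3 were lower and 0 higher (median -0.42), and without SH045 mouse 1 0 passed (median -0.57).

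Class II genes were lower in sum as well as in share. H2-Eb1 had 270, 343 and 299 CPM in SH045 members and 499, 503 and 560 CPM in Vehicle members, a log2 change of -0.78 (SE 0.14, edgeR adjusted p = 0.0134). H2-Ab1 changed by -0.78 and H2-Aa by -0.66, and with the lysosomal protease Ctss 4 of 9 class II genes were lower (median -0.66). Cd74 had 2366, 3118 and 2247 CPM in SH045 members and 4274, 3229 and 3927 CPM in Vehicle members, and did not pass (-0.56, adjusted p = 0.112). Without C1q or Ptprc UMIs the log2 change was -0.18 for H2-Eb1, -0.23 for H2-Ab1 and -0.10 for H2-Aa, and 0 of 8 class II genes passed (median -0.13). Dendritic cell markers, from cells rich in class II, were lower in SH045 members as well (1.41 ± 1.25 and 12.4 ± 5.71 CPM), and their part in the difference was not tested. The count was also 0 of 9 with the length trend removed and without SH045 mouse 1, SH045 mouse 3 or Vehicle mouse 2, and H2-Ab1 and H2-Aa also missed the threshold without Vehicle mouse 1.

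Among injury genes, Wfdc2, a secreted protein of the protease inhibitor family whose gene lies at chr2:164562413-164568510 on the plus strand, had 260, 281 and 311 CPM in SH045 members and 459, 466 and 589 CPM in Vehicle members, a log2 change of -0.83 (SE 0.14, edgeR adjusted p = 0.0104). The log2 change was -0.85 (adjusted p = 0.0437) without C1q or Ptprc UMIs, -0.76 (0.113) without SH045 mouse 1, -0.61 (0.096) with the length trend removed, and it also missed the threshold at Havcr1 of at least 3. It was 1 of 31 injury genes to pass, and 25 of the 31 had a negative sign (median -0.61). Krt20 had 88.8, 111 and 88.2 CPM in SH045 members and 133, 154 and 226 CPM in Vehicle members, without overlap, but missed the threshold (-0.83, adjusted p = 0.0576). Sox9 had 44.4, 58.3 and 75.2 CPM in SH045 members and 93.4, 90.8 and 103 CPM in Vehicle members, again without overlap and short of the threshold (-0.69, adjusted p = 0.0812). Cdh6 had 76.8, 77.6 and 76.9 CPM in SH045 members and 55.6, 44.1 and 59.1 CPM in Vehicle members (0.56, adjusted p = 0.103). Ccl2 (-0.84, adjusted p = 0.0998), Spp1 (-0.61, adjusted p = 0.14), Lcn2 (-1.76, SE 0.83, adjusted p = 0.386), Cdkn1a (-0.33, adjusted p = 0.382) and Vcam1 (0.09, adjusted p = 0.871) did not pass the edgeR test either. Hnf4a, the transcription factor that maintains proximal identity, had 182, 182 and 234 CPM in SH045 members and 110, 153 and 102 CPM in Vehicle members (0.70, adjusted p = 0.0646), while Lrp2 (0.40) and Mki67 (0.48) were far from the threshold. Without C1q or Ptprc UMIs the log2 change was -0.65 for Krt20, -0.18 for Sox9, 0.46 for Cdh6, -0.05 for Ccl2 and -0.23 for Spp1. It was then -1.69 for Lcn2, 0.06 for Cdkn1a, 0.36 for Vcam1, 0.66 for Hnf4a, 0.40 for Lrp2 and -0.14 for Mki67. None of these genes passed there, and of 28 injury genes 1 was higher and 1 lower (median -0.30).

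**Figure D5:**
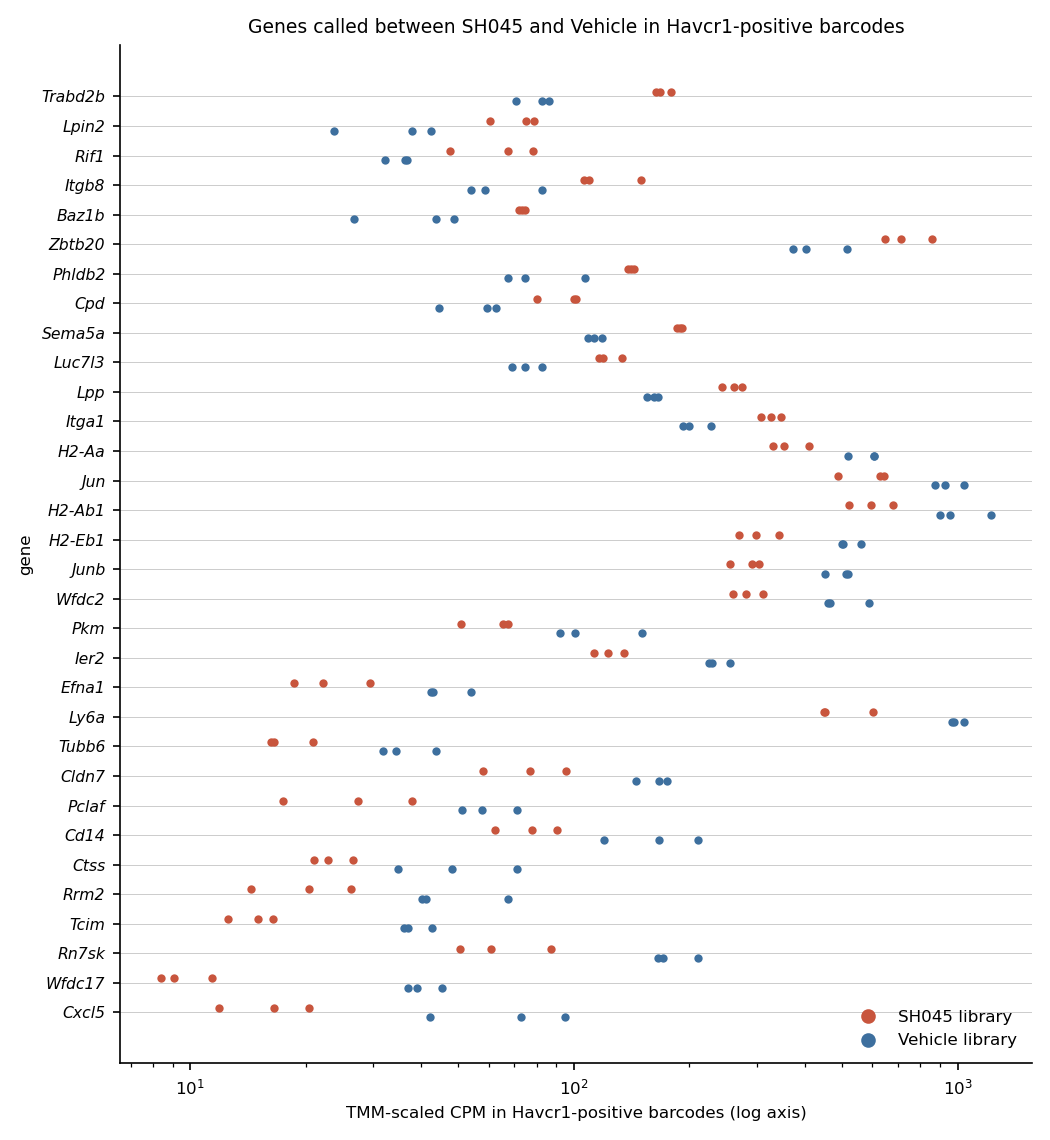
Level of each named gene that passed the test between SH045 and Vehicle in Havcr1-positive cells, in TMM-normalised CPM on a log axis, ordered by log2 change from Trabd2b (1.09) to Cxcl5 (-2.12). Each point is 1 library, with SH045 in the upper line and Vehicle in the lower line of each gene; the groups overlap in none of the genes drawn.

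The largest falls mixed epithelial, proliferation and leukocyte genes. Cxcl5 had 16.5, 20.4 and 11.9 CPM in SH045 members and 42.2, 72.7 and 94.7 CPM in Vehicle members, a log2 change of -2.12 (SE 0.30, edgeR adjusted p = 0.0103), but -0.48 (adjusted p = 0.951) without C1q or Ptprc UMIs. Wfdc17, known from activated mouse macrophages, had 11.4, 8.42 and 9.05 CPM in SH045 members and 37.1, 45.2 and 39.0 CPM in Vehicle members, a log2 change of -2.08 (SE 0.23, edgeR adjusted p = 0.000552), but -1.49 (adjusted p = 0.305) without C1q or Ptprc UMIs. The bacterial lipid co-receptor Cd14 (-1.12) and Ctss (-1.13) are likewise expressed by macrophages, whose markers were lower in SH045 members, and the part of those cells was not tested. The tight junction gene Cldn7 had 58.1, 95.6 and 76.9 CPM in SH045 members and 145, 175 and 166 CPM in Vehicle members (-1.08). Ly6a (-0.99), the ephrin Efna1 (-0.98), the tubulin Tubb6 (-1.01), Tcim (-1.41), Pkm (-0.90), a glycolytic enzyme, and the small nuclear RNA Rn7sk (-1.45) were lower too, as were the replication genes Rrm2 (-1.25) and Pclaf (-1.10). Of all genes in this paragraph, Rn7sk alone passed without C1q or Ptprc UMIs, and Wfdc17 alone without SH045 mouse 1. With the length trend removed, Rrm2, Ctss, Cd14, Pclaf, Tubb6, Efna1 and Pkm did not pass (edgeR adjusted p between 0.115 and 0.171). Without Vehicle mouse 2, Cxcl5, Tcim, Rrm2, Ctss, Cd14, Pclaf, Tubb6 and Efna1 did not pass. Further calls were lost without SH045 mouse 3 (Rrm2, Ctss, Cd14, Tubb6, Efna1, Pkm), SH045 mouse 2 (Rrm2, Ctss, Pclaf, Tubb6, Pkm), Vehicle mouse 1 (Rrm2, Pclaf, Tubb6, Efna1) and Vehicle mouse 3 (Ctss, Pkm).

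Few genes of any list passed between the groups, while the medians of several lists lay away from that of all genes. Of 36 proliferation genes 6 had a positive sign, and of 20 p53 targets 4 did (median -0.38, 0 passed). Proliferation genes were lower for 1 of 36 (median -0.53), chemokines for 1 of 19 (-0.24) and glycolysis genes for 1 of 15 (-0.23), and failed repair genes were higher for 1 of 17 (0.06). Of 61 oxidative phosphorylation genes 0 passed, and the median was -0.28 with 2 of positive sign. Of 17 nephron transcription factors 0 passed, and the median was 0.27 with 15 of positive sign. Genes of a fatty tissue list did not pass the filter on low counts in members. Proximal transport genes (0 of 35, median -0.26), interferon genes (0 of 30, 0.18), NF-kB targets (0 of 19, -0.14) and profibrotic genes (0 of 34, 0.02) had no call. With the length trend removed, the median was -0.08 for oxidative phosphorylation genes and 0.27 for nephron transcription factors.

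Whether the SH045 change differed between members and other tubule cells was tested as an interaction, and no difference was called. Of 13038 genes 0 (0.0%) passed the edgeR quasi-likelihood test, 564 had an unadjusted p under 0.05, and DESeq2 called 4. The edgeR count was 3 without SH045 mouse 2, 19 without Vehicle mouse 1 and 2 without Vehicle mouse 2. Wfdc2 came with a difference of -0.90 between the 2 log2 changes (SE 0.13, adjusted p = 0.0796), its change in other tubule cells being 0.04. For H2-Eb1 the log2 change in other tubule cells was -0.81, close to that in members, and the difference was -0.01 (SE 0.17). For Trabd2b the change in other tubule cells was 0.45 and the difference 0.56 (SE 0.18, adjusted p = 1.0). No change with SH045 is therefore called particular to these cells. On simulated data the interaction test recovered 50 of 100 genes changed 2-fold.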

How the data were processed

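Per the labels' protocols, obstructed kidneys were dissociated with an enzyme solution and loaded on Singleron GEXSCOPE chips, 6000 cells targeted per library. Raw counts of UMIs per gene and barcode were deposited by library, built on mm10 per the submitters' processing notes. Aligner, counter, annotation and strand setting are not given in the sources used here. No barcode total was under 2166 UMIs, so barcodes had been filtered before deposit. Of the 31276 genes over all matrices, 11493 are listed by fewer than 6 libraries and were read as 0 where missing.

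Members, states and gene lists were chosen with earlier results of these data known. Members were selected by UMI limits with no clustering, integration or doublet removal; the top 5% of Scrublet scores (scanpy 1.11.5) were left out as an alternative. Each cell was thinned to 2000 UMIs with a fixed seed to set states, which left out 0 members, and full counts were summed per library. Sums were compared with edgeR 4.0.16 (R 4.3.3; TMM, filterByExpr, robust quasi-likelihood test, Benjamini-Hochberg 0.05 over all genes tested), with library as block between states and in the interaction. A state was tested over libraries with at least 10 cells on each side. The 6 genes of the selection and the gating genes were left out of these counts. Shares were compared over 3 against 3 mice by two-sided exact permutation (scipy 1.17.1); cells are not replicates. Intervals and the zero-count limit (3 counts) cover counting error only. Fits were tested on simulated data: for SH045 against Vehicle, 100 of 100 genes changed 4-fold and 83 of 100 changed 2-fold were recovered among 10108 genes. In that fit 15 unchanged genes were called. For the interaction, 95 of 100 genes changed 4-fold and 50 of 100 changed 2-fold were recovered, and 16 unchanged genes were called. Changed genes were drawn from those with at least 20 CPM, and no length trend was put in.

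Named genes were the 12 largest rises and 12 largest falls (8 per state) among called genes with at least 20 CPM and no overlap of groups (the same sign in every library for states), up to 3 called genes per list, and 12 fixed genes. Gene models without a name, sex-linked, immunoglobulin and haemoglobin genes were left out. Of 23 lists, those not named in the text are in the plot of lists by state. Alternatives were DESeq2 1.42.0 (test and size factors), no low-count filter, a replicate block, each library left out, Havcr1 of at least 3, a mitochondrial limit of 20%, no C1q or Ptprc UMI, a common minimum of 3175 UMIs, Scrublet removal, removal of a transcript length trend (spline on the longest GENCODE vM21 transcript), and thinned or unthinned counts for states. The mitotic gate was added after the data were seen. Promoters come from RefSeq windows on GRCm38.p6, the build also known as mm10.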

Additional observations from a re-analysis of the deposited data

How the results depend on the processing

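For the share of members, SH045 minus Vehicle was -0.11 percentage points, 1.08 without C1q or Ptprc UMIs, 0.374 with a common UMI minimum, and -0.688 to 0.775 with a library left out. State shares turned sign for Krt20 (0.746 without C1q or Ptprc UMIs, -3.60 to 0.224 with a library left out), Sox9 (0.987, and -2.56 to 0.257) and cell cycle (-3.88 to 1.57 with a library left out). The 55 SH045 calls became 98 with DESeq2, 28 at Havcr1 of at least 3, 19 without C1q or Ptprc UMIs, 415 with no low-count filter, 23 with the length trend removed and 3 to 136 with a library left out. With the replicate number as a block they became 95, but the numbers do not pair mice (correlations of same-numbered deviations between -0.0052 and 0.0079). Without C1q or Ptprc UMIs, state calls fell to 187 for Krt20, 36 for Sox9, 476 for Vcam1, 25 for Cdh6, 65 for cell cycle and 251 for class II; the mitotic state could not be fitted. On thinned sums they were 193, 46, 290, 64, 131 and 221 for the same states and 274 for mitotic. With states on unthinned counts they were 1501 for Krt20, 651 for Sox9, 777 for Vcam1, 585 for Cdh6 and 205 for cell cycle. DESeq2 called 778 for Vcam1, 64 for Cdh6, 234 for cell cycle and 433 for class II. With no low-count filter Sox9 had 241, Cdh6 242 and cell cycle 730. With a library left out, calls ranged over 573–927 for Krt20, 65–104 for Sox9, 859–1278 for Vcam1, 79–94 for Cdh6, 193–519 for cell cycle, 600–739 for class II and 702–1204 for mitotic. The interaction called 4 with DESeq2, 118 with no low-count filter, 7 against proximal tubule barcodes and 0 to 19 with a library left out. Il1f6 (0.79) and Il1rn (0.88) were higher in the class II state when states were set on unthinned counts. The cause of these shifts was not tested. Over all alternatives of the named genes, 1461 values kept direction and side of the threshold, 332 no longer passed, 16 newly passed and 2 reversed.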
